A study of Mus musculus with 6 samples.

Results

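Of the 60915 non-control probes on the Arraystar mouse lncRNA array, 1836 carry "linc" in their name, and these were taken as the lincRNA probes, with 1 value per probe name. They fall into 3 series of names. There were 1104 probes named humanlincRNA, 649 named mouselincRNA and 83 named MM9LINCRNAEXON, each followed by a locus number and a sign for the strand. The remaining 59079 probes, called the other probes below, cover mRNAs and further lncRNAs. They hold some lincRNAs under the identifiers of the array's own design. The study's list entry humanlincRNA2248, for example, matched such a probe by fold change and p-value. All 1836 names were used as the files give them, since the files pair neither a gene nor a probe sequence with them.

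The 6 arrays, each labelled with 1 dye (Cy3), were hybridized with hippocampal RNA from 1 mouse each, of which 3 were Nrf2 (+/+) and 3 Nrf2 (−/−). All mice were males of the ICR strain, aged 3 to 4 months, and the labels set the groups apart by genotype alone, wild type or Nrf2 knockout, with no driver that would limit the knockout to a tissue or cell type. Ribosomal RNA was removed, and labelled cRNA was made by random priming along whole transcripts. The comparison asks which lncRNAs differ in level in the hippocampus when Nrf2, a transcription factor that switches on antioxidant and detoxifying genes, is missing.

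Long intergenic noncoding RNAs (lincRNAs) are transcripts of RNA polymerase II that are often spliced and capped like mRNAs, lie between protein-coding genes and encode no known protein. Many are made at low levels and in few cell types, brain included, and some act in the nucleus on the transcription or chromatin of genes nearby or elsewhere. Whole-tissue RNA was measured, so fewer cells that make a lincRNA and less of it per cell cannot be told apart.

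Across the series, 65.5% to 75.7% of all probes per array were well above background, the scanner software's flag for a spot clearly brighter than its local background, which is called detected here. Between 13.3% and 14% of the negative-control spots carried the same flag, so a detected probe is not in itself proof of a transcript. The median background-subtracted intensity lay between 87.7 and 109 on the Nrf2 (+/+) arrays and between 138 and 184 on the Nrf2 (−/−) arrays, with no overlap. The probe matched to Nfe2l2, the gene of Nrf2, had log2 signals of 12.40, 11.93 and 12.28 in the Nrf2 (+/+) mice and of 7.95, 7.82 and 8.02 in the Nrf2 (−/−) mice (limma, adjusted p = 6.72e-04). That probe was found through the study's own list by its change, so it checks the labels less strictly than a probe named in the files would. Arrays with the same scan start were taken to share a slide. On that basis both replicate 1 arrays shared a slide, as did both replicate 3 arrays. The replicate 2 array of each genotype was the single array of this set on its slide.

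lincRNA probes were detected far less often than the other probes. In the Nrf2 (+/+) mice, 23.3%, 32.5% and 23.5% of the 1836 lincRNA probes were well above background, against 66.8%, 72.5% and 68.4% of the other probes. In the Nrf2 (−/−) mice the shares were 32.95%, 40.7% and 27.8% of the lincRNA probes, against 74.4%, 76.8% and 71.2% of the other probes. The lincRNA share was lower on all 6 arrays, by 41.6 ± 3.19 percentage points on average (SD, n = 6; lincRNA minus other ran from −44.9 to −36.1). The exact two-sided sign-flip test over the 6 arrays gave p = 0.0312, the smallest it allows, and the same adjusted p over the 6 such comparisons made. Since all arrays carry the same probes, this test speaks only of the steadiness of a difference from mouse to mouse.

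The named series were not alike. MM9LINCRNAEXON probes were detected at 45.8% to 56.6% per array, which was 19.5 ± 2.64 percentage points above the mouselincRNA probes (SD, n = 6 arrays, exact sign-flip p = 0.0312). mouselincRNA probes lay above humanlincRNA probes by only 1.80 ± 1.15 percentage points, with array differences from 0.116 to 3.26. On the − strand, probes were detected more often than + strand probes by 0.941 percentage points on average, a difference that nearly vanished on 1 array (+ minus − of −0.0431). Among humanlincRNA probes alone the order of the strands differed between arrays. On Nrf2 (+/+) replicate 1, 22.0% of + and 20.9% of − strand probes were detected, and on Nrf2 (−/−) replicate 2, 39.0% and 40.9%.

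**Figure D1:**
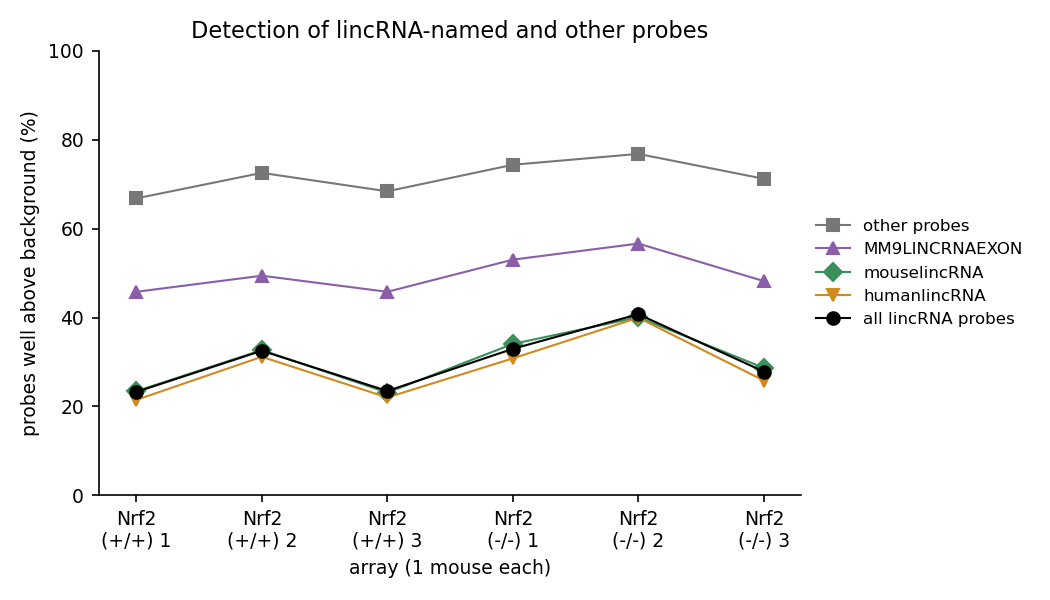
The plot gives the share of probes well above background (y axis, percent) on each of the 6 arrays (x axis, 1 mouse each) for the other probes, all lincRNA probes and the 3 series of lincRNA names. The lincRNA line runs between 23.3% and 40.7% and the line of the other probes between 66.8% and 76.8%, with the MM9LINCRNAEXON probes in between.

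Over the 6 arrays, 1046 lincRNA probes (57.0%) were never well above background, against 20.6% of the other probes. A further 391 (21.3%) were detected on all 6 arrays, against 64.7% of the other probes, and 569 (31.0%) were detected on 3 or more arrays, against 72.7%. These 569 are the lincRNA probes that entered the genotype test.

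Signals followed the same order. The median normalized log2 signal of the lincRNA probes was 3.11, 3.12 and 3.02 in the Nrf2 (+/+) mice and 3.09, 3.27 and 2.99 in the Nrf2 (−/−) mice, while that of the other probes lay between 7.08 and 7.09 on all 6 arrays. The difference of −3.98 ± 0.10 (log2, SD, n = 6, exact sign-flip p = 0.0312) includes the many probes at background, and with normexp it was −1.48. Among detected probes alone it was −1.78 ± 0.08. Between 2.56% and 3.81% of the lincRNA probes passed a log2 signal of 10. A probe's brightness also depends on its sequence, whose part in these differences was not tested.

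A few lincRNA probes were very bright. mouselincRNA0161-, the lincRNA probe with the highest mean, had log2 signals of 17.18, 17.18 and 17.04 in the Nrf2 (+/+) mice and 17.06, 16.97 and 17.04 in the Nrf2 (−/−) mice. It was also one of the 3 steadiest lincRNA probes, with a within-genotype SD of 0.064. MM9LINCRNAEXON10664+ gave 16.62, 17.20 and 16.57 against 16.94, 17.35 and 16.81, with its highest value in replicate 2 of each genotype. No spot of the 6 arrays carried the saturation flag.

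The other bright probes were less steady. mouselincRNA1606- gave 15.96, 15.32 and 14.91 in the Nrf2 (+/+) mice and 14.28, 15.80 and 14.39 in the Nrf2 (−/−) mice. humanlincRNA2397+ gave 14.50, 15.09 and 14.06 against 14.44, 15.86 and 14.33. humanlincRNA1739+ gave 14.63, 14.47 and 13.43 against 13.97, 15.68 and 13.55. In all 3 the genotypes overlapped, and Nrf2 (−/−) replicate 2 was the highest of its genotype.

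Most lincRNA loci are covered on both strands, which lets each locus be read in both directions. The 1836 probes name 960 loci, of which 876 have a + and a − probe. At 430 of these loci (49.1%) neither strand was detected on 3 or more arrays. A single strand was detected at 355 loci (40.5%), the + strand at 175 and the − strand at 180. Both strands were detected at 91 loci (10.4%). The − strand was detected at 34.2% of the 266 loci whose + strand was detected and at 29.5% of the 610 loci whose + strand was not. Over all loci, detection on 1 strand thus went with little more detection on the other. The same shares were 33.3% and 25.9% for humanlincRNA loci and 34.0% and 35% for mouselincRNA loci. For the 12 MM9LINCRNAEXON loci they were 75% and 50%.

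The share of loci detected on a single strand was 38.2% of 547 humanlincRNA loci, 44.5% of 317 mouselincRNA loci and 5 of 12 MM9LINCRNAEXON loci. Among the 91 loci with both strands detected, the log2 fold changes of both strands between genotypes correlated at r = 0.15 across loci, which are not independent replicates and share all 6 arrays. mouselincRNA0161 and humanlincRNA1739 were single-strand loci, with the opposite probe detected on 0 arrays. MM9LINCRNAEXON10664 and humanlincRNA2397 were detected on both strands on all 6 arrays.

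**Figure D2:**
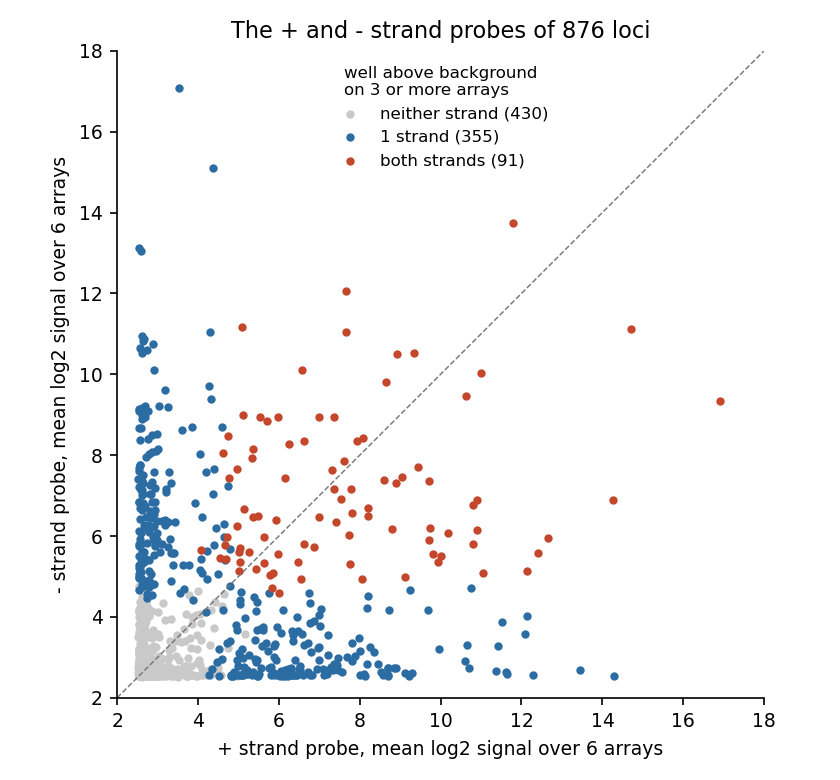
Each point is a locus with a + strand probe (x axis) and a − strand probe (y axis), both as the mean normalized log2 signal over 6 arrays, coloured by whether neither, 1 or both probes were well above background on 3 or more arrays. Among the 355 loci detected on 1 strand, 207 lie more than 3 log2 units from the dashed line of equal signal and the rest lie nearer to it, and the 91 loci detected on both strands are spread over the middle without following that line.

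Signals of the detected lincRNA probes differed more between mice of a genotype than those of the other probes. Over the probes detected on all 6 arrays, the median within-genotype SD was 0.414 for 390 lincRNA probes and 0.308 for the other probes. Over probes detected on 3 or more arrays it was 0.430 for 568 lincRNA probes, against 0.320, and 38.9% of these lincRNA probes had an SD over 0.5, against 19.5% of the other probes. The SD of a lincRNA probe was larger at brighter levels. At mean log2 signals of 4 to 6 the medians were 0.280 for 43 lincRNA probes and 0.328 for the other probes, at 8 to 10 they were 0.432 for 92 lincRNA probes and 0.320, and at 12 to 18 they were 0.603 for 18 lincRNA probes and 0.238.

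With another background correction, normexp, the median SDs over all tested probes differed by only 0.0099 in place of 0.110. Within levels of signal the order of the sets with normexp was as before. At mean log2 signals of 4 to 6 normexp gave 0.131 for the lincRNA probes and 0.147 for the other probes, and at 6 to 8, which hold 202 lincRNA probes, it gave 0.263 and 0.213, in place of 0.404 and 0.328. At 10 to 12 it gave 0.509 for 35 lincRNA probes and 0.292 for the other probes, and at 12 to 18 it gave 0.622 and 0.238. With the 75th-percentile shift the order at 4 to 6 was reversed, at 0.379 for the lincRNA probes and 0.295 for the other probes. These values by brightness and correction were computed after the data had been seen.

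**Figure D3:**
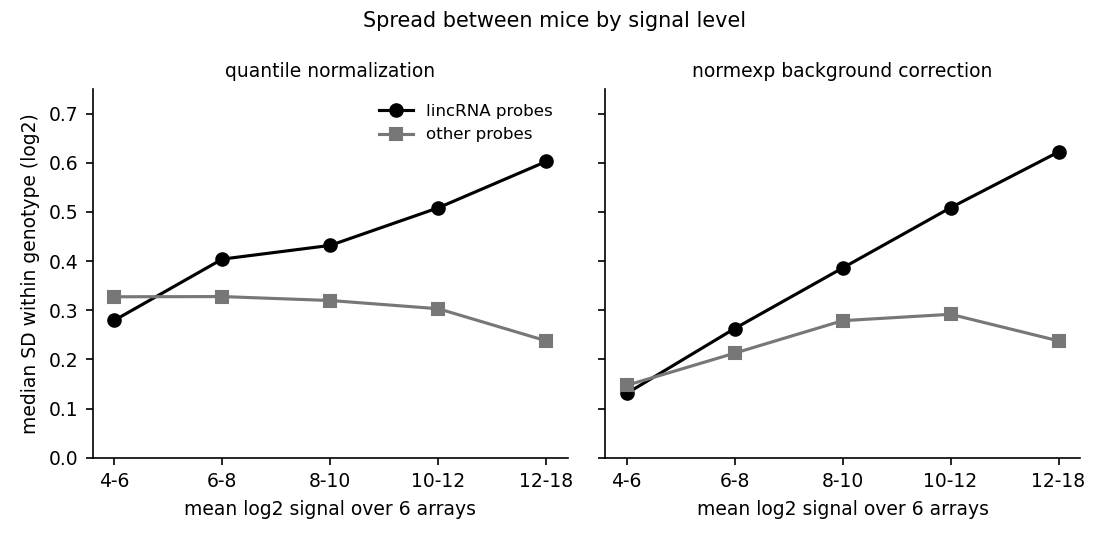
The median within-genotype SD of normalized log2 signals (y axis) is plotted by mean log2 signal (x axis) for lincRNA probes and other probes detected on all 6 arrays, with quantile normalization alone on the left and with normexp background correction on the right. The lincRNA line rises from 0.280 to 0.603 on the left and from 0.131 to 0.622 on the right, while the other probes reach no more than 0.328.

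lincRNA probes also shifted as a set from array to array, and the share of this shift in the spread was not measured. Taking each probe's deviation from its own mean over the 6 arrays, the median over the lincRNA probes detected on all 6 was −0.20, 0.19 and −0.35 in Nrf2 (+/+) replicates 1 to 3 and 0.02, 0.47 and −0.15 in the Nrf2 (−/−) replicates. The same medians of the other probes lay between −0.07 and 0.09. lincRNA probes as a set were thus highest in replicate 2 of both genotypes, and they were so with the 75th-percentile shift (0.24 and 0.59) and with normexp (0.13 and 0.35) as well. Nrf2 (+/+) replicate 2 was the highest of its genotype for 277 of 390 lincRNA probes (71.0%), against 32.8% of the other probes. Nrf2 (−/−) replicate 2 was the highest for 313 of 389 lincRNA probes (80.5%), against 38.1% of the other probes. Each of these arrays was alone on its slide, and slide and mouse cannot be told apart for them.

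**Figure D4:**
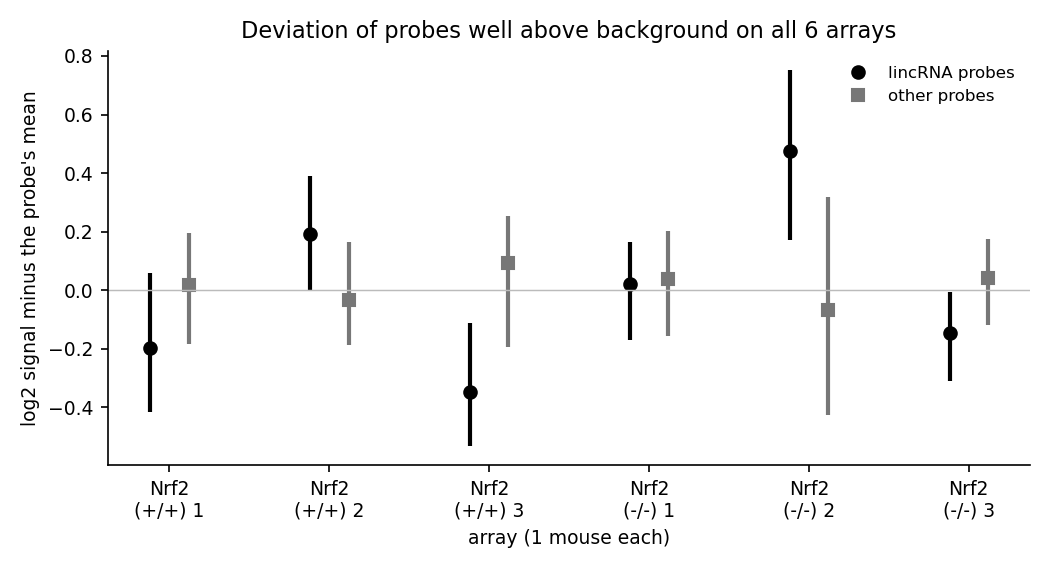
For each array (x axis, 1 mouse each), points give the median and bars the interquartile range of a probe's normalized log2 signal minus its mean over the 6 arrays (y axis), for lincRNA probes and other probes detected on all 6 arrays. The lincRNA medians are highest in Nrf2 (+/+) 2 at 0.19 and Nrf2 (−/−) 2 at 0.47, while the medians of the other probes stay between −0.07 and 0.09.

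The pair of lincRNA probes with the largest spread shared another pattern over the arrays. humanlincRNA1364- gave 10.36, 8.12 and 7.59 in the Nrf2 (+/+) mice and 10.29, 10.61 and 8.11 in the Nrf2 (−/−) mice (within-genotype SD 1.42). humanlincRNA2246+ gave 9.71, 7.78 and 7.17 against 9.62, 10.19 and 7.49 (SD 1.38). Both were high on the same 3 arrays, Nrf2 (+/+) replicate 1 and Nrf2 (−/−) replicates 1 and 2. These are the arrays of the first of 2 scan sessions, which were set here by the hour of the scan. humanlincRNA2257-, the next in spread (SD 1.11), gave 8.20, 6.72 and 6.63 against 7.28, 9.79 and 7.90 and was highest in Nrf2 (−/−) replicate 2. At the other end, humanlincRNA2438+ lay between 14.18 and 14.31 on all 6 arrays (SD 0.048), and mouselincRNA1284+ lay between 6.84 and 7.26 (SD 0.069).

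Compared with Nrf2 (+/+) mice, lincRNA probes were detected more often in the Nrf2 (−/−) mice, but the groups overlapped and the difference did not pass the test over mice. The shares were 26.4% ± 5.28 and 33.8% ± 6.50 (SD, n = 3 each), a difference of 7.43 percentage points with an exact permutation p of 0.2 (two-sided, adjusted p = 0.4 over 4 such tests). An exact test of 3 mice against 3 cannot go below 0.1. Within the slide of the replicate 1 arrays the difference was 9.69 percentage points, and within that of the replicate 3 arrays it was 4.36. The other probes moved the same way, from 69.2% ± 2.96 to 74.1% ± 2.81 (exact permutation p = 0.2), and the raw intensities given above were also higher on the Nrf2 (−/−) arrays; their part in the difference was not tested.

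Counted probe by probe, 333 lincRNA probes (18.1%) were detected on more Nrf2 (−/−) than Nrf2 (+/+) arrays and 25 (1.36%) on fewer, against 11.8% and 1.30% of the other probes. No lincRNA probe was detected in all Nrf2 (+/+) mice and no Nrf2 (−/−) mouse. That pattern held for 15 (0.0254%) of the other probes. The reverse held for 5 lincRNA probes (0.272%), against 290 (0.491%) of the other probes. Among them humanlincRNA1178- gave 4.97, 4.72 and 5.21 in the Nrf2 (+/+) mice, none well above background, and 5.32, 5.98 and 5.49 in the Nrf2 (−/−) mice. It was at least 1.39-fold higher in the Nrf2 (−/−) mice, a description only, since the probe was chosen for this pattern. The bound sets the mean of the 3 Nrf2 (−/−) values against the lowest well-above-background signal of each Nrf2 (+/+) array or the probe's own value, whichever was higher. humanlincRNA2182-, chosen in the same way, was at least 1.17-fold higher with overlapping genotypes. MM9LINCRNAEXON11564+, mouselincRNA1397- and mouselincRNA0085- allow no fold.

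The genotype test gave no lincRNA probe an adjusted p under 0.05. Of the 569 lincRNA probes detected on 3 or more arrays, 0 passed with limma and Benjamini-Hochberg adjustment over all 43528 tested probes, against 0.0482% (21) of all tested probes, and the lowest adjusted p was 0.107. At an unadjusted p under 0.05, 46 lincRNA probes (8.08%) passed, against 5.05% of all tested probes. Of these, 24 (4.22%) were higher in the Nrf2 (−/−) mice, where all tested probes gave 1.76%, and 22 (3.87%) were lower, where all tested probes gave 3.29%. The 46 comprise 33 of 321 tested humanlincRNA probes (10.3%), 10 of 208 mouselincRNA probes (4.81%) and 3 of 40 MM9LINCRNAEXON probes (7.5%). The balance of higher to lower probes was not stable. It was 92 to 27 without Nrf2 (+/+) replicate 2, where 11.4% of all tested probes passed, and 151 to 56 with the slide as a block, where 21.7% did. It was 8 to 20 without Nrf2 (+/+) replicate 1 (2.68% of all tested probes), 9 to 18 without Nrf2 (+/+) replicate 3 (2.61%) and 9 to 22 with the scan session as a block (3.62%). With the slide as a block, a fit that rests on the 2 slides holding both genotypes, 20 lincRNA probes had an adjusted p under 0.05, 17 of them lower, where 1.3% of all tested probes did. Without Nrf2 (−/−) replicate 2 there were 12, all lower, where 0.448% of all tested probes passed.

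Most of the 569 log2 fold changes were above 0. The median was 0.24, with 432 higher and 137 lower in the Nrf2 (−/−) mice, while the median over all tested probes was −0.01. The unpaired test of this shift over mice did not pass. The median log2 signal of the same probes was 6.45 ± 0.25 in the Nrf2 (+/+) and 6.68 ± 0.37 in the Nrf2 (−/−) mice (SD, n = 3, exact permutation p = 0.6). By replicate it was 6.55 against 6.39 on the slide of both replicate 1 arrays, a difference of 0.16, and 6.38 against 6.24 on that of both replicate 3 arrays, a difference of 0.15. The replicate 2 arrays, on a slide each, gave 7.10 and 6.72, so that the Nrf2 (−/−) mouse was the higher at each number. Without Nrf2 (−/−) replicate 2 the median log2 fold change was 0.08, without Nrf2 (+/+) replicate 3 it was 0.13, and without Nrf2 (+/+) replicate 2 or Nrf2 (−/−) replicate 3 it was 0.42 or 0.40. Over all 1836 probes, with no filter on detection, it was 0.02.

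Separation of the genotypes was likewise read against all tested probes. All 3 Nrf2 (−/−) values lay above all Nrf2 (+/+) values for 41 lincRNA probes (7.21%), against 4.25% of all tested probes. They lay below for 25 lincRNA probes (4.39%), against 6.23%.

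Among large changes, falls outnumbered rises with all 6 arrays, but not without Nrf2 (+/+) replicate 2, where 25 lincRNA probes were higher and 20 lower (2.72% of all tested probes passed then, against 1.43% with all arrays). The study's methods set a 2-fold change and an unadjusted p under 0.05 as limits for lncRNAs. At these, 18 lincRNA probes (3.16%) were lower, against 1.12% of all tested probes, and 6 (1.05%) were higher, against 0.308%. Only 13 of the lower and 3 of the higher were detected on all 6 arrays. Several others passed the detection filter through 3 arrays of the genotype where they were higher and 1 array of the other. Limited to probes detected on all 6 arrays, the test gave 13 lower and 3 higher (1.095% of all tested probes). By name the 18 came from 18 different loci, 13 humanlincRNA, 4 mouselincRNA and 1 MM9LINCRNAEXON. Chromosomes were taken from the study's list entries, each matched to a probe by fold change and p-value. Of 23 lincRNA-named entries, 16 matched a probe of the same name and sign. By this match humanlincRNA0931+ and MM9LINCRNAEXON11125+ both lie on chromosome 18. The entry matched to MM9LINCRNAEXON11125+ is named mouselincRNA0739, so 1 transcript can carry names of different series. Whether these 2 probes share a locus was not tested. The log2 fold changes of the 18 ran from −2.38 to −1.17 with a median of −1.76, and the adjusted p from limma ran from 0.107 to 0.908. Within the slide of the replicate 1 arrays all 18 were lower in the Nrf2 (−/−) mouse, by log2 differences from −3.75 to −1.23, and within that of the replicate 3 arrays all 18 were lower by −2.62 to −0.44. These directions largely follow from the choice of the 18 on the same arrays and are given for their size. In 16 of the 18, Nrf2 (−/−) replicate 2 was the highest of its genotype, the same array on which lincRNA probes as a set were highest. With normexp the counts were 12 lower and 0 higher, the 12 were among the 18, and 0.689% of all tested probes passed. Without Nrf2 (−/−) replicate 3 they were 18 lower and 14 higher (1.91% of all tested probes), and with no filter on detection 24 lower and 20 higher of 1836 lincRNA probes (1.45% of all probes). With the methods' t-test in place of limma they were 16 lower and 2 higher (1.08% of all tested probes). The count of higher probes was also 2 with the scan session as a block, beside 17 lower (1.58% of all tested probes). It was 2 as well without Nrf2 (+/+) replicate 3, beside 17 lower (1.445%), and without Nrf2 (−/−) replicate 2, beside 20 lower (1.69%).

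The probe with the lowest p was humanlincRNA0459-, on chromosome 6 by the study's annotation. Its log2 signals were 8.92, 8.65 and 8.33 in the Nrf2 (+/+) mice and 6.25, 6.85 and 5.73 in the Nrf2 (−/−) mice. The log2 fold change was −2.35 ± 0.32 (SE, limma, adjusted p = 0.107). With the slide as a block, a fit that rests on the slides holding both genotypes, the adjusted p from limma was 0.00388. For all 8 of the largest falls described here it then lay between 0.00388 and 0.0121, where 1.3% of all tested probes passed 0.05. Without Nrf2 (−/−) replicate 2 the adjusted p was 0.0186 for humanlincRNA0459- and ran from 0.0171 to 0.0596 over the 8, where 0.448% of all tested probes passed. The 8 were chosen for their falls on the same arrays. All 3 Nrf2 (−/−) values of humanlincRNA0459- lay below the lowest Nrf2 (+/+) value, which was a condition of its choice. The + strand probe of the locus was detected on all 6 arrays, at 9.14 ± 0.24 and 8.97 ± 0.15 (SD, n = 3), a log2 fold change of −0.17 (limma, adjusted p = 0.913). The difference between both strands, − minus +, went from −0.51 ± 0.36 to −2.70 ± 0.44 without overlap (change −2.19), which is given as a description because the probe was chosen for its fall.

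humanlincRNA0931+ fell furthest with quantile normalization alone. It gave 8.84, 8.23 and 7.54 in the Nrf2 (+/+) mice and 5.66, 6.90 and 4.92 in the Nrf2 (−/−) mice. Its log2 fold change was −2.38 ± 0.53 (SE, limma, adjusted p = 0.328), and with normexp −1.55, against −1.97 for MM9LINCRNAEXON11125+. MM9LINCRNAEXON11125+ gave 11.19, 10.20 and 9.83 against 8.03, 9.12 and 7.38, with a log2 fold change of −2.23. In both, the values differed widely within each genotype. The highest Nrf2 (−/−) value, that of replicate 2, lay below the lowest Nrf2 (+/+) value, which was a condition of their choice. No opposite-strand value can be set beside MM9LINCRNAEXON11125+, whose locus has 1 probe, and the − strand of humanlincRNA0931 was detected on 0 arrays.

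On chromosome 17, mouselincRNA0725- gave 8.72, 8.65 and 7.88 against 6.28, 7.05 and 5.27 (log2 fold change −2.22). Its genotypes did not overlap, which was a condition of its choice. Its + strand stayed at the background level, at 2.67 ± 0.07 and 2.60 ± 0.06 (SD, n = 3). On chromosome 10, humanlincRNA0518+ gave 9.05, 8.99 and 8.69 against 6.83, 7.63 and 6.80, a log2 fold change of −1.83 ± 0.27 (SE, limma, adjusted p = 0.133). On the same chromosome, humanlincRNA1945- gave 9.80, 9.45 and 9.41 against 7.43, 8.38 and 7.62 (log2 fold change −1.74; limma, adjusted p = 0.159). In both, the Nrf2 (+/+) mice were close together and Nrf2 (−/−) replicate 2 came nearest to them, and both had an opposite strand that was detected on 0 arrays.

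humanlincRNA0635+, on chromosome 14, was the brightest of the 8 largest falls. It gave 13.25, 13.23 and 12.58 against 11.26, 12.03 and 10.50, a log2 fold change of −1.76 ± 0.40 (SE, limma, adjusted p = 0.336). Its − strand probe, detected on 2 arrays and so not tested, gave 2.62, 3.20 and 2.69 in the Nrf2 (+/+) mice and 4.00, 6.12 and 5.59 in the Nrf2 (−/−) mice. These − strand values were higher in the Nrf2 (−/−) mice, but the probe was not detected on most arrays, so no change of that strand is read from them. The lack of overlap on the + strand was a condition of its choice. humanlincRNA1382-, on chromosome 9, gave 9.16, 8.64 and 8.62 against 6.82, 7.57 and 6.76 (log2 fold change −1.76; limma, adjusted p = 0.150). Its + strand probe lay at 5.27 ± 0.22 and 5.395 ± 0.21 (SD, n = 3; limma, adjusted p = 0.934).

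**Figure D5:**
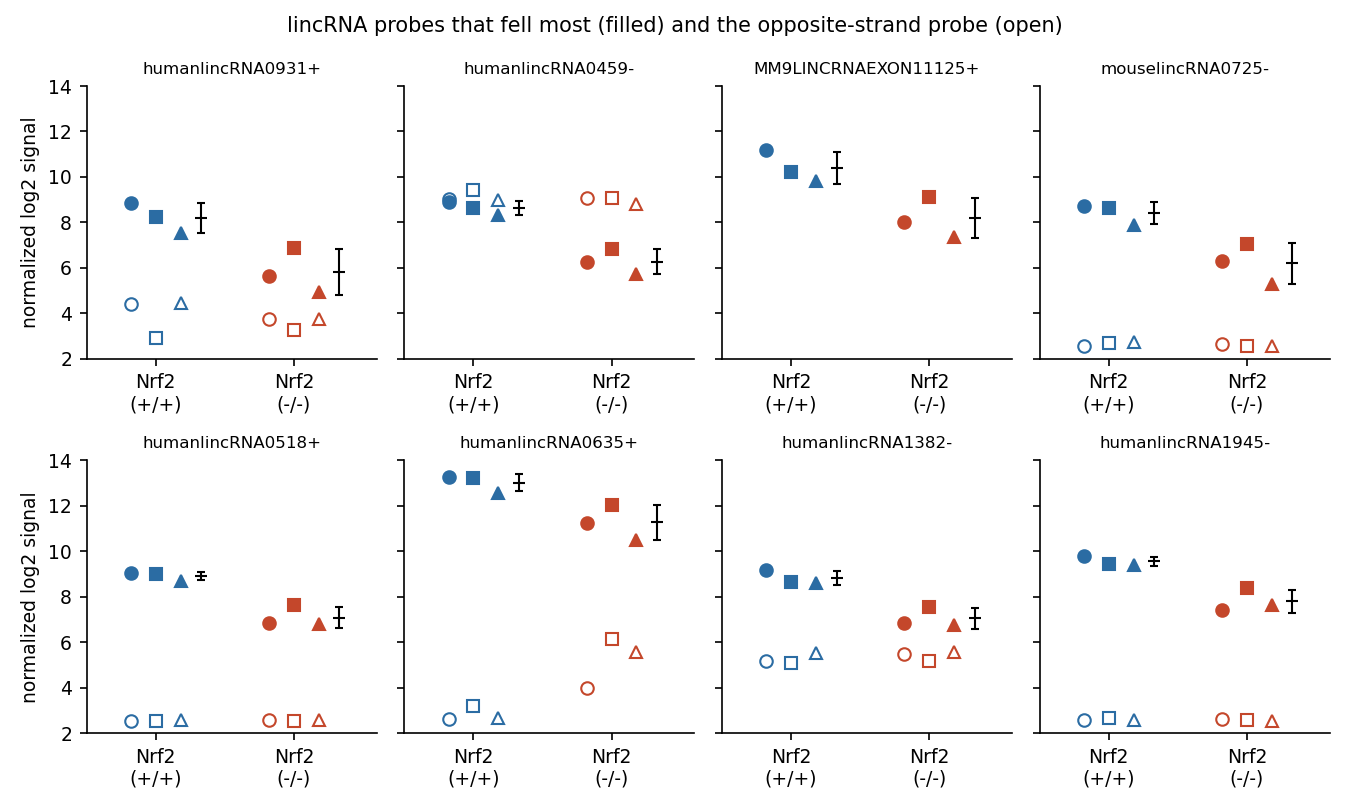
The 8 lincRNA probes with the largest falls among those detected on all 6 arrays are shown as normalized log2 signals (y axis) in the Nrf2 (+/+) and Nrf2 (−/−) mice (x axis), with replicates 1, 2 and 3 as circles, squares and triangles, the probe filled, the opposite-strand probe open, and the mean ± SD of the filled points in black. Filled points do not overlap between the genotypes in any of the 8, which was a condition of their choice. The open points of humanlincRNA0459 lie near 9 in both genotypes.

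Of the 18 lower probes, 17 have a probe for the opposite strand. That probe was detected on 0 arrays at 12 loci and was tested at 4, where its log2 fold change lay between −0.17 and 0.12 and never passed. Since the loci were chosen for the fall of 1 strand, the difference between their strands was bound to fall with it and was not tested. Besides humanlincRNA0459 its changes were −1.88 for humanlincRNA1382, −1.38 for humanlincRNA2316 and −1.28 for mouselincRNA1235.

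The 6 probes that were higher by 2-fold had log2 fold changes from 1.02 to 1.54 with a median of 1.20. The largest, humanlincRNA1929-, was detected on 3 arrays and overlapped between the genotypes, as did mouselincRNA0917+ (log2 fold change 1.45), which was detected on all 6. Among probes detected on all 6 arrays with an unadjusted p under 0.05 and no overlap, only humanlincRNA1300-, on chromosome 16, passed 2-fold, with 6.28, 6.72 and 5.95 in the Nrf2 (+/+) mice and 7.11, 7.78 and 7.13 in the Nrf2 (−/−) mice (log2 fold change 1.02 ± 0.29, SE; limma, adjusted p = 0.573). mouselincRNA1171- had the closest replicates of these, at 5.51, 5.33 and 5.34 against 6.26, 6.20 and 6.004 (log2 fold change 0.76; limma, adjusted p = 0.428). Its + strand probe went the other way, with a log2 fold change of −0.34 that did not pass (limma, adjusted p = 0.909). The next, humanlincRNA1006-, humanlincRNA0367-, humanlincRNA0747-, humanlincRNA0549-, humanlincRNA0740- and humanlincRNA0966+, had log2 fold changes of 0.74, 0.68, 0.67, 0.64, 0.54 and 0.52.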

How the data were processed

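Per the labels and the methods, the authors extracted spot intensities with Agilent Feature Extraction 11.0.1.1, which subtracts the background, and deposited these intensities with quality flags (other values: well above background, outlier, saturated) beside 1 quantile-normalized log2 signal per probe and array. Here, outlier spots were set to missing (7 lincRNA values), control spots and 15 negative-control sequences were left out, log2 background-subtracted signals were normalized by quantiles, and a probe was tested if 3 or more of the 6 arrays flagged it as well above background. The result differed from the authors' deposited log2 signals by a median of 0.000974. Normexp used the median spot and background intensities with an offset of 50.

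Genotypes were compared with limma 3.58.1 (lmFit, eBayes; R 4.3.3) over all 43528 tested probes with Benjamini-Hochberg adjustment; fold changes are on the log2 scale. Single values were compared by exact permutation or sign-flip tests (scipy 1.17.1, Python 3.11.15). Nothing in the labels beyond 1 mouse per array bears on batches. Slides and 2 scan sessions were inferred from the recorded scan times. Arrays with the same scan start were taken to share a slide, and the sessions were split by the hour of the scan. The limma script was tested on simulated data.

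Members, lists and tests were chosen with earlier results of these data known. The text names any probe with an adjusted p under 0.05, the 8 largest rises and falls among probes detected on all 6 arrays with an unadjusted p under 0.05 and no overlap, up to 4 probes detected in 1 genotype alone, the 5 brightest, and the 3 largest and 3 smallest SDs. The other probes named (mouselincRNA0085-, humanlincRNA1929-, mouselincRNA0917+, humanlincRNA2316-, mouselincRNA1235- and opposite strands) were chosen after their values were seen. Lists of cell type markers and of known lncRNAs were not run, because the files pair most probes with identifiers without genes, so the tissue label was not checked. The array number, 3 per genotype, limits the precision, and with 1 hybridization per mouse the spread holds both biological and technical differences.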

Additional observations from a re-analysis of the deposited data

How the results depend on the processing

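The higher detection and signal of the other probes kept their direction throughout. Leaving out each array in turn gave differences of −42.6 to −40.9 percentage points and of −4.02 to −3.96 on the log2 scale, with p = 0.0625, the smallest an exact sign-flip test of 5 arrays allows. The difference in median SD, 0.110, was 0.184 with the 75th-percentile shift, 0.0099 with normexp, and 0.0949 to 0.147 with an array left out. The 46 lincRNA probes at an unadjusted p under 0.05 became 27 of 391 among those detected on all 6 arrays (4.91% of all tested probes), 101 of 1836 with no filter (6.05%), 207 with the slide as a block (21.7% of all tested probes then passed), and 27 to 119 with an array left out. Among the Nrf2 (+/+) mice, leaving out replicate 1 gave 28 (2.68% of all tested probes then passed), replicate 3 gave 27 (2.61%) and replicate 2 gave 119 (11.4%). The 24 past 2-fold became 12 with normexp (0.689% of all tested probes), 44 of 1836 with no filter (1.45%), and 19 to 45 with an array left out. The 19 came without Nrf2 (+/+) replicate 3, where 1.445% of all tested probes passed. The 45 came without Nrf2 (+/+) replicate 2, where 2.72% of all tested probes passed. The count at an adjusted p under 0.05 became 20 with the slide as a block, 16 of them among the 18 large falls, where the share of all tested probes went from 0.0482% to 1.3%. It was 0 to 12 with an array left out (0.448% of all tested probes for the 12) and 0 elsewhere.

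The labels give the replicate numbers no meaning, and same-numbered deviations correlated at −0.15, 0.43 and 0.81, so the mice were not taken as pairs, although both replicate 1 arrays shared a slide, as did both replicate 3 arrays. With the replicate block, 177 lincRNA probes (147 higher, 30 lower) had an unadjusted p under 0.05, where 16.3% of all tested probes did, and 0 an adjusted p under 0.05. The median log2 fold change stayed above 0 under all alternatives, from 0.02 with no filter to 0.42. For the 8 named falls, all 128 recomputed values kept direction and an unadjusted p under 0.05. This largely follows from their choice on the same arrays for a large fall, an unadjusted p under 0.05 and no overlap. humanlincRNA1929-, mouselincRNA0917+ and mouselincRNA0085- were not followed in this way. For the 8 other named rises and 4 other probes detected in Nrf2 (−/−) mice alone, direction was kept, 36 values no longer passed and 8 newly passed. The cause of these shifts was not tested.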
